A study of Mus musculus with 27 samples.

Results

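The histone genes of the fetal mouse brain were followed across 3 strains and 3 gestational days. They are the 83 of 55416 genes in the deposited count table whose symbols name a histone by the current nomenclature (H1f, H2ac, H2bc, H3c and H4c genes, the lettered H2a variants and the H3f genes) or by the older Hist names. By symbol, 63 of them are replication-dependent genes (5 of H1, 18 of H2A, 16 of H2B, 12 of H3 and 12 of H4, with H2ac14 annotated as a transcribed unitary pseudogene), 8 are replication-independent variant genes, 11 are genes known from testis or oocyte, and 1, H3f3c, is a processed pseudogene. RNA was taken from the whole brain of female fetuses on d12, d15 and d17 of gestation, with the day of the vaginal plug counted as d1, in 3 libraries for each day of the strains AKR/J, Cav1-null and C57BL/6J. AKR/J is an inbred strain with a short life span, C57BL/6J is an inbred strain with a long one, and Cav1-null mice (B6.Cg-Cav1tm1Mls/J) are short-lived mice congenic to C57BL/6J that lack caveolin 1 in all cells and not only in the brain. The dams were about 8 weeks old. The study calls the step from d12 to d15 the early phase and that from d15 to d17 the late phase. The replicates are separate fetal brains, and the labels do not give the dam, so that p-values measure the spread between these samples.

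Core histones H2A, H2B, H3 and H4 wrap DNA into nucleosomes, and the linker histone H1 binds where the DNA enters and leaves. Replication-dependent genes supply new histones while DNA is copied: they lie in clusters, mostly lack introns, and their mRNA ends in a conserved stem-loop that is bound by Slbp in place of a poly(A) tail. Replication-independent genes encode variants that are made through the cell cycle and in neurons that no longer divide, such as H3.3 (H3f3a and H3f3b) and H2A.Z (H2az1 and H2az2), from polyadenylated mRNA. The libraries were made from RNA bound to poly-T beads, so that a level of a replication-dependent gene here is that of the RNA which such beads retain and not of all its mRNA. In whole tissue, fewer dividing cells and less RNA per cell cannot be told apart.

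The stem-loop is shown first because it is the feature of the mRNA that a library made with poly-T beads bears on. The letters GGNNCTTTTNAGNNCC were searched on the gene's strand in the 100 bases after the stop codon, in GRCm39 with GENCODE vM39. They were found for 55 of the 62 replication-dependent genes with an annotated stop codon, for 1 of 8 replication-independent genes (H2ax) and for 3 of 11 testis or oocyte genes. Among all 21656 protein-coding genes 65 (0.300%) held them, and on the opposite strand none did. The sites below have 5 bases on either side, with the stem-loop in capitals.
H4c9 (chr13:22225131-22225156, minus strand): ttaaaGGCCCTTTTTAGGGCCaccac
H4c12 (chr13:21934315-21934340, minus strand): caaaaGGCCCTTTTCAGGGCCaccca
H3c3 (chr13:23929025-23929050, minus strand): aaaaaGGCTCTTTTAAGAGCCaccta
H2ac11 (chr13:22226648-22226673, minus strand): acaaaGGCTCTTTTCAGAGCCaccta
H2bc11 (chr13:22227803-22227828, plus strand): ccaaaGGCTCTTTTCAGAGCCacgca
H1f2 (chr13:23923490-23923515, plus strand): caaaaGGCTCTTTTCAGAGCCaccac
H2ax (chr9:44246532-44246557, plus strand): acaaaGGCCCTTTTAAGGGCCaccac

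The site of H4c12 lies beyond the end of its annotated transcript, and the other sites lie in annotated 3′ untranslated regions. The loop begins 21 to 58 bases after the stop codon in the 59 histone genes that have it, and the version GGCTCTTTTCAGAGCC of H1f2, H2ac11 and H2bc11 was shared by 37 of them. The stem differed by class: all 11 H4 genes with a stem-loop had GGCCC or GGTCC at its start, and all 47 genes of the other classes except H2ax had GGCTC. H2ax encodes H2A.X, the variant phosphorylated at DNA breaks, and is known to give both a stem-loop mRNA and a polyadenylated one. The poly(A) signal AATAAA stood in the last 50 bases of the longest annotated transcript of 12 of 63 replication-dependent genes and 5 of 8 replication-independent genes, against 56.08% of all genes.

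Most of the replication-dependent genes had few reads. Reads on the 83 genes made up 0.136% to 0.424% of a library of 26363697 to 39759702 reads, and the replication-dependent genes 2.83% to 4.77% of the histone CPM (counts per 1000000 reads on genes). Reads were counted for 68 genes in at least 1 library. The 15 genes at 0 in all 27 libraries were H2ac18, H2ac19, H2ac23, H2ac24, H2bc18, H2bc23, H2bc24, H3c13 and H3c14 of the replication-dependent kind, and H2ab1, H2ab2, H2ac1, H2al3, H2ap and H2bc1 of the testis or oocyte kind. A count of 0 allows up to 3 reads in a library, which is 0.0755 to 0.114 CPM, for counting error only. Of the 54 replication-dependent genes with reads, 13 had a mean of at least 1 CPM over the libraries.

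Near-identical copies bear on these levels. In each of the 9 replication-dependent genes at 0, at least 90.5% of the 100-base stretches of its exons occurred also in another gene, and for 5 of the 9 every stretch did. Among the 54 with reads the median was 35.9%, and H2ac14 was the 1 gene with every stretch shared. How reads with several matches were counted is not given in the sources used here, so that the values of copies such as H2ac11 (76.2% shared, with H2ac23, H2ac24, H2ac6 and H2ac7), H2aw (70.0%, mostly with the overlapping gene Trim17 on the same strand) and H2az1 (65.0%, with Tmcc1 and gene models named Gm) are uncertain. H2bc21 shared none and H4c9 15.1%.

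**Figure D1:**
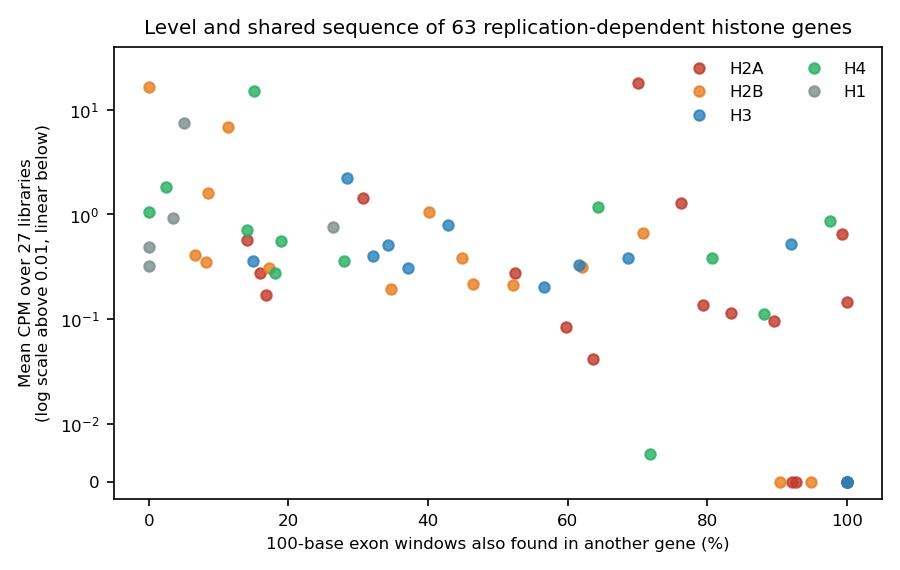
Mean CPM over 27 libraries (log axis above 0.01, linear below it) of the 63 replication-dependent histone genes against the percentage of their 100-base exon stretches found in another gene, 1 point per gene, coloured by class. The 9 genes at 0 lie at the right, at 90.5% or more, and H2bc21 with no shared stretch is among the 3 highest.

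Scaled by exon length, H3f3b (282 CPM per kb of exon, mean of 27 libraries) and H2az1 (233) stood at the top, followed by H1f0 (107) and H3f3a (105), then H2ax (46.5), H2az2 (35.5), H1f10 (34.1) and H2aj (13.2). Among the replication-dependent genes H4c9 came first at 20.7 CPM per kb, then H2aw (8.50), H2bc21 (6.39) and H1f2 (4.76). The transcript model of H4c9 runs 330 bases past its stem-loop, that of H2aw 1643 bases, and H2bc21 has no stem-loop after its stop codon. Of 18 replication-dependent genes whose longest model runs 300 or more bases past the loop, 6 had a mean of at least 1 CPM and the median was 0.737 CPM. The other 37 with a stem-loop had 6 such genes and a median of 0.277 CPM. These medians are not scaled by exon length, and genes with a long model past the loop often have many exon bases. H1f3 of the first set, with 7425 exon bases, had 0.931 CPM but 0.125 CPM per kb. H2ac11 of the other set, with 485, had 1.29 CPM and 2.67 CPM per kb. The medians thus do not rank the sets per kb.

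As checks of the libraries, Cav1 was at 0 to 0.551 CPM in the 9 Cav1-null libraries and at 6.36 CPM or more in the others, and all 6 progenitor and all 6 neuron markers were detected. All 10 listed erythroid genes had reads in the series. The d12 libraries of AKR/J stood apart by the sum of these genes, which was 35610 to 136200 CPM against 1783 to 4810 CPM in C57BL/6J on d12. Trophoblast and decidua genes summed to 467, 78.8 and 19.1 CPM in AKR/J replicates 1, 2 and 3 of d12. The highest of the other libraries, a C57BL/6J one of d12, had 43.9 CPM, which is above AKR/J replicate 3. The part of these cells in the AKR/J d12 values was not tested. CPM values are scaled by library totals, while log2 fold changes are fitted with TMM factors, which were 0.679, 1.07 and 0.688 in the 3 AKR/J d12 libraries. Scaling by library totals alone raised the all-gene median of log2 fold changes in the AKR/J early phase from 0.02 to 0.46, so that a CPM and a fold change of that comparison can differ in direction. A list of RNAs known to lack poly(A) tails summed to at most 0.721 CPM in every library, and 6 of the 11 of them in the table were at 0 throughout.

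The summed level of the replication-dependent genes was highest on d12 and lowest on d17 in each strain. In AKR/J it was 192, 127 and 200.5 CPM on d12, 111, 107 and 80.1 CPM on d15 and 59.4, 63.1 and 54.1 CPM on d17. C57BL/6J had 117, 77.2 and 136 CPM, 69.1, 76.1 and 64.8 CPM and 54.3, 57.6 and 57.4 CPM on the same days. Cav1-null brains gave 115, 128 and 92.5 CPM, 94.8, 85.01 and 82.4 CPM and 59.97, 49.6 and 52.4 CPM. Every d12 library lay above every d17 library of its strain, and on d17 the strains overlapped. H2aw (16.7, 20.9 and 17.8 CPM) and H2bc21 (13.7, 13.4 and 13.4 CPM), which has no stem-loop, made up much of the AKR/J sums on d17. The class sums differed in how much was left, and the places of H2A and H4 in that order depend on the single genes H2aw and H4c9. Between the means of d12 and d17, H3 genes were 11.9-fold lower in AKR/J, 5.92-fold lower in C57BL/6J and 4.46-fold lower in Cav1-null mice. H4 genes were lower by 8.67-fold, 4.27-fold and 3.94-fold in the same order. H4c9 held 73.9, 39.3 and 70.7 CPM of the AKR/J d12 sums of 92.7, 48.0 and 90.5 CPM. In Cav1-null mice it held 25.7, 28.6 and 14.2 CPM of 31.1, 34.8 and 19.6 CPM on d12. On d17 it held 2.99, 2.48 and 2.69 CPM of 11.1, 5.25 and 5.30 CPM there. The early log2 fold changes of the 7 H4 genes tested in Cav1-null mice had a median of 0.66, with 1 called lower. H2A genes, the class that holds H2aw, were lower by 1.12-fold, 1.15-fold and 1.86-fold. In AKR/J, H2aw was at 6.97, 7.69 and 8.18 CPM of H2A sums of 24.0, 17.9 and 27.1 CPM on d12. It was at 16.7, 20.9 and 17.8 CPM of sums of 19.5, 22.7 and 19.3 CPM on d17. In the other strains on d17 H2aw had 426 to 613 reads, and no other replication-dependent H2A gene had over 19. The H2A folds thus mostly reflect H2aw and not the other H2A genes. These folds are descriptions of sums and carry no test. With TMM-scaled CPM the mean sum of AKR/J on d12 was 231.

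**Figure D2:**
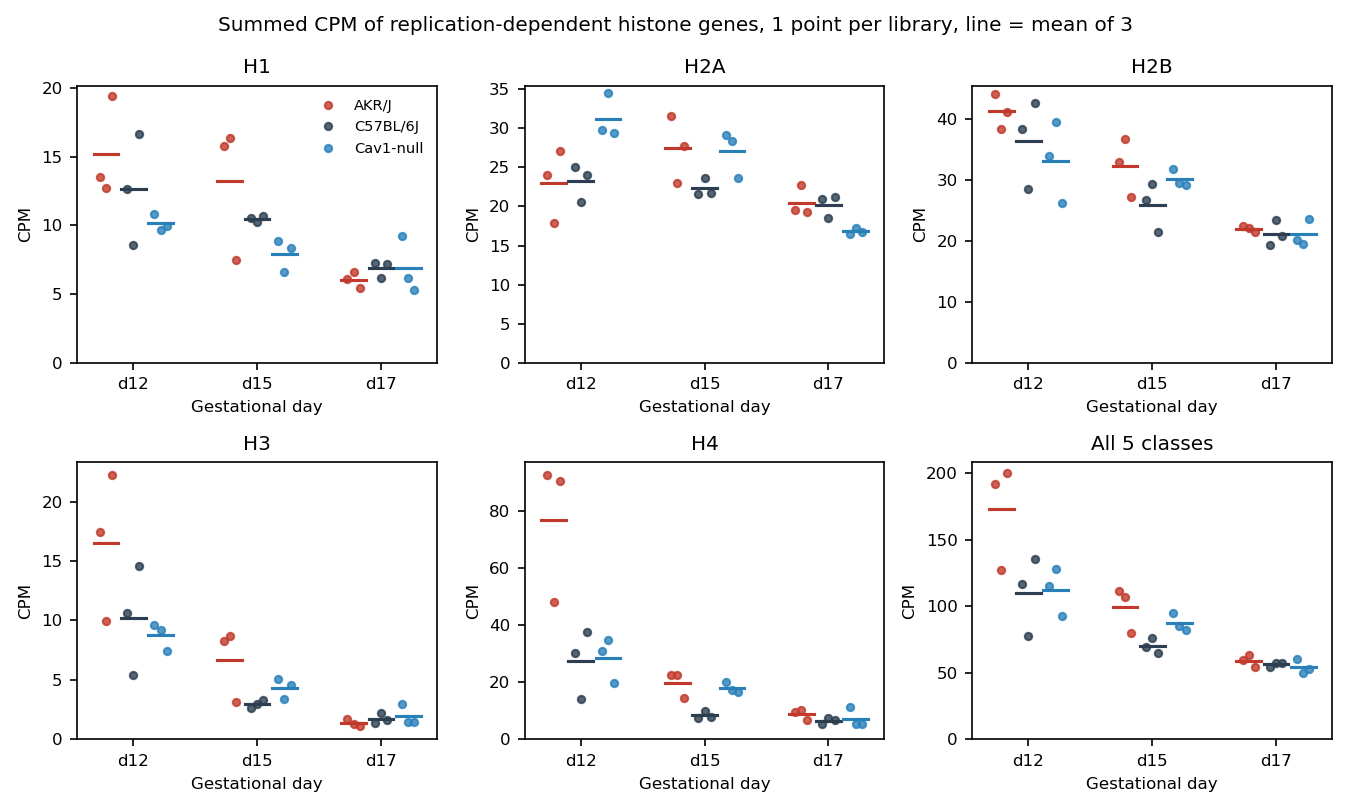
Summed CPM of the replication-dependent histone genes of each class and of all 5 classes by gestational day, 1 point per library and a line at the mean of 3 libraries, coloured by strain. The H3 and H4 panels fall towards d17 in each strain, and the 3 AKR/J libraries of d12 lie between 48.0 and 92.7 CPM for H4.

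H4c9, a gene of the nucleosome core histone H4 on chromosome 13 (22224806 to 22225532, minus strand), had the largest fall without overlap between libraries in the AKR/J early phase. In AKR/J it was at 73.9, 39.3 and 70.7 CPM on d12, 12.2, 8.87 and 11.5 CPM on d15, and 5.23, 4.63 and 3.19 CPM on d17. In C57BL/6J it was at 17.2, 9.76 and 23.6 CPM on d12, 4.48, 4.87 and 4.71 CPM on d15, and 1.68, 3.91 and 3.34 CPM on d17. In Cav1-null mice it was at 25.7, 28.6 and 14.2 CPM on d12, 9.87, 8.32 and 8.69 CPM on d15, and 2.99, 2.48 and 2.69 CPM on d17. Each d12 library was higher than each d15 library of its strain, and in each strain every d17 library was below every d15 library. The log2 fold changes of H4c9 in the early phase were -3.07 ± 0.40 (SE) for AKR/J, -1.79 ± 0.29 for C57BL/6J and -1.39 ± 0.26 for Cav1-null brains, with edgeR adjusted p-values of 0.00215, 0.0202 and 0.00696. Between d15 and d17 they were -1.28 ± 0.23 (SE) for AKR/J, -0.81 ± 0.28 for C57BL/6J and -1.72 ± 0.17 for Cav1-null brains, with edgeR adjusted p-values of 0.00655, 0.091 and 1.02e-05. H4c9 lost the C57BL/6J early call without d12 replicate 1 or any 1 d15 replicate (edgeR adjusted p up to 0.116). H4c9 alone took 31.0% to 38.5% of the replication-dependent CPM in the d12 libraries of AKR/J, 12.6% to 17.4% in C57BL/6J and 15.4% to 22.4% in Cav1-null mice on that day. Without H4c9 the sum on d12 was 112 ± 21.7 CPM (SD, n = 3) in AKR/J, 92.97 ± 22.96 CPM in C57BL/6J and 88.98 ± 10.4 CPM in Cav1-null mice.

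H3c3, a gene of the replication-coupled histone H3, had the highest mean CPM of the H3 genes that depend on replication. AKR/J libraries had 7.64, 4.799 and 10.2 CPM on d12, 2.19, 1.83 and 0.763 CPM on d15, and 0.381, 0.114 and 0.173 CPM on d17. C57BL/6J libraries had 3.72, 1.97 and 5.700 CPM on d12, 0.478, 0.847 and 0.887 CPM on d15, and 0.129, 0.471 and 0.401 CPM on d17. Cav1-null libraries had 5.42, 4.58 and 3.37 CPM on d12, 1.16, 0.722 and 1.58 CPM on d15, and 0.591, 0.0369 and 0.0689 CPM on d17. Libraries of successive days did not overlap in any strain, though the highest C57BL/6J library of d17 was just under the lowest of d15. Early log2 fold changes of H3c3 were -2.82 ± 0.54 (SE) for AKR/J, -2.30 ± 0.44 for C57BL/6J and -1.98 ± 0.35 for Cav1-null brains, with edgeR adjusted p-values of 0.00769, 0.0251 and 0.00506. Late ones were -2.76 ± 0.56 (SE) for AKR/J, -1.30 ± 0.50 for C57BL/6J and -2.27 ± 0.70 for Cav1-null brains, with edgeR adjusted p-values of 0.0111, 0.119 and 0.0271. With 1 library left out H3c3 lost the C57BL/6J early call without d12 replicate 1 or any 1 d15 replicate (edgeR adjusted p up to 0.123), the AKR/J late call without d17 replicate 2 or 3 (adjusted p up to 0.0642) and the Cav1-null late call without d15 replicate 1 or 3 or d17 replicate 2 or 3 (adjusted p up to 0.118), and its Cav1-null late value ranged from -4.34 to -1.77. Exons of H3c3 overlap H2bc3 on the other strand, and whether counting used strand is not given in the sources used here.

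H2ac11 and H2bc11 are a divergent pair of an H2A and an H2B gene that share 269 bases between their starts on chromosome 13. In AKR/J, H2ac11 was at 4.98, 3.14 and 5.77 CPM on d12, 1.25, 1.29 and 1.13 CPM on d15, and 0.4501, 0.0759 and 0.208 CPM on d17. In C57BL/6J, H2ac11 was at 1.89, 1.23 and 2.72 CPM on d12, 0.453, 0.503 and 0.323 CPM on d15, and 0.0323, 0.0337 and 0.134 CPM on d17. In Cav1-null mice, H2ac11 was at 2.605, 2.61 and 1.42 CPM on d12, 0.708, 0.997 and 0.718 CPM on d15, and 0.104, 0.0739 and 0.0689 CPM on d17. Libraries of successive days did not overlap in any strain. H2ac11 was the 1 replication-dependent gene that fell in all 6 comparisons of days, with early log2 fold changes of -2.49 ± 0.44 (SE) for AKR/J, -2.12 ± 0.38 for C57BL/6J and -1.48 ± 0.36 for Cav1-null brains, with edgeR adjusted p-values of 0.0057, 0.0223 and 0.0197. Its late log2 fold changes were -2.25 ± 0.53 (SE) for AKR/J, -2.75 ± 0.63 for C57BL/6J and -3.23 ± 0.56 for Cav1-null brains, with edgeR adjusted p-values of 0.0192, 0.0316 and 0.000861. With 1 library left out H2ac11 lost the C57BL/6J early call without d12 replicate 1 or any 1 d15 replicate (edgeR adjusted p up to 0.124), the Cav1-null early call without d12 replicate 1 or 2 or d15 replicate 1 or 3 (adjusted p up to 0.083), the AKR/J late call without d15 replicate 1 or d17 replicate 2 or 3 (adjusted p up to 0.092) and the C57BL/6J late call without d15 replicate 3 or d17 replicate 2 or 3 (adjusted p up to 0.0752). In the C57BL/6J late phase H2ac11 was not tested without d15 replicate 1 or 2, and stayed called in 1 of the 6 fits. On d17 every C57BL/6J and Cav1-null library was near or under the level of 3 reads, so that the late values rest on few reads.

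The partner H2bc11 had 4.001, 2.82 and 5.17 CPM on d12 and 1.25, 1.36 and 0.763 CPM on d15 in AKR/J. The same days gave 1.23, 1.06 and 2.19 CPM and 0.377, 0.556 and 0.511 CPM in C57BL/6J, and 1.43, 1.58 and 1.12 CPM and 0.261, 0.516 and 0.144 CPM in Cav1-null mice. No library of d15 reached the lowest of d12 in its strain. Its early log2 fold changes were -2.40 ± 0.47 (SE) for AKR/J, -1.57 ± 0.38 for C57BL/6J and -2.17 ± 0.48 for Cav1-null brains, with edgeR adjusted p-values of 0.00805, 0.039 and 0.0127. Later H2bc11 fell in AKR/J, by 2.11 on the log2 scale (SE 0.46, edgeR adjusted p = 0.0144), and was at -1.45 ± 0.81 (SE, edgeR adjusted p = 0.252) in C57BL/6J. In Cav1-null mice it had 7, 15 and 4 reads on d15 and 10, 6 and 9 reads on d17, which overlap. H2bc11 lost the C57BL/6J early call without d12 replicate 1 or 3 or any 1 d15 replicate (edgeR adjusted p up to 0.147), the Cav1-null early call without d15 replicate 1 (adjusted p up to 0.0614) and the AKR/J late call without d17 replicate 2 or 3 (adjusted p up to 0.0728).

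The stretch between both starts is given because both genes fell in the early phase in each strain and the region holds 5 copies of the CCAAT box, in capitals, which is bound by NF-Y (read as CCAAT or, on the other strand, ATTGG). It is chr13:22227115-22227383 of GRCm39, plus strand, with H2ac11 to its left and H2bc11 to its right.
H2ac11 and H2bc11: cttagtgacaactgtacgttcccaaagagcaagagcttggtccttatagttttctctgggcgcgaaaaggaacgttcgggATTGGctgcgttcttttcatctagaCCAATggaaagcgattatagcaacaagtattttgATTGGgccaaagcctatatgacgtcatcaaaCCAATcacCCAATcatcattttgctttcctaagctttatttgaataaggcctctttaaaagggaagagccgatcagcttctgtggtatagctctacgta
For comparison, the 175 bases between the divergent genes H2ac8 and H2bc8 (chr13:23755395-23755569, GRCm39, plus strand) hold 2 CCAAT boxes, TATAAA, which is the TATA box, and ATTTGCAT, the octamer of H2B promoters, all in capitals.
H2ac8 and H2bc8: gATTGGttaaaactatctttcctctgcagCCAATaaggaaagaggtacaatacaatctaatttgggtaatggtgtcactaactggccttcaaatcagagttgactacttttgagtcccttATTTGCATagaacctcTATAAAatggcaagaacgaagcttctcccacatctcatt
In the RefSeq promoters of GRCm38.p6 (250 bases before to 50 after the start, both strands read) CCAAT stood in 86.0% of 57 replication-dependent promoters, which belong to 56 genes, against 37.4% of all 32851, TATAAA in 56.1% against 13.6%, and ATTTGCAT in 21.1% against 1.74%. The octamer was found in H2A and H2B promoters, 6 of 17 and 6 of 14, and in none of H1, H3 or H4. CCAAT was found in 3 of 11 H4 promoters and in every promoter of the other 4 classes. The 250 bases before the start of H4c9 (chr13:22041363-22041612 of GRCm38.p6, minus strand) hold no CCAAT and 1 TATAAA, in capitals. A match is a match of letters and no binding was measured.
H4c9: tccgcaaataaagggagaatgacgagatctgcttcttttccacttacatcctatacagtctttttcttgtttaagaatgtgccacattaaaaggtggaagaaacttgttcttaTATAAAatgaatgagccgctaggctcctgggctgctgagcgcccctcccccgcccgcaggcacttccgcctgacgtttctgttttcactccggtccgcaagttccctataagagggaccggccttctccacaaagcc

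There are 12 divergent pairs of an H2A and an H2B gene with starts within 500 bases, and within a pair the reads could differ widely. H2ac8 was at 5.48, 2.96 and 6.26 CPM in AKR/J on d12 and its partner H2bc8 at 0.671, 0.706 and 1.12 CPM. H2bc21, whose partner H2ac20 had 145 reads in all libraries together, had 14063. H2ac8 fell in the early phase in AKR/J, with a log2 fold change of -2.22 ± 0.47 (SE, edgeR adjusted p = 0.0105), and in C57BL/6J, with -1.501 ± 0.41 (SE, edgeR adjusted p = 0.0492). H2ac8 lost the AKR/J early call without d15 replicate 3 (edgeR adjusted p up to 0.0541) and the C57BL/6J early call without d12 replicate 1 or 3 or any 1 d15 replicate (adjusted p up to 0.172). In Cav1-null mice its early value was -1.10 ± 0.36 (SE, edgeR adjusted p = 0.0583). H2bc8 was tested in the AKR/J early phase, where it was at -1.22 ± 0.66 (SE, edgeR adjusted p = 0.197).

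H2bc21, an H2B gene on chromosome 3 that is known to be made as polyadenylated mRNA in cells that have stopped dividing, was at 15.9, 19.8 and 15.7 CPM on d12, 21.7, 19.9 and 19.1 CPM on d15 and 13.7, 13.4 and 13.4 CPM on d17 in AKR/J. C57BL/6J had 24.7, 20.6 and 22.4 CPM, 20.1, 21.3 and 16.2 CPM and 13.4, 13.00 and 13.4 CPM, and Cav1-null mice 18.3, 21.9 and 13.4 CPM, 16.2, 15.3 and 13.8 CPM and 9.39, 12.2 and 13.4 CPM. Its d12 and d15 libraries overlapped in every strain. Early log2 fold changes of H2bc21 were -0.24 ± 0.18 (SE) for AKR/J, -0.19 ± 0.14 for C57BL/6J and -0.28 ± 0.20 for Cav1-null brains, with edgeR adjusted p-values of 0.351, 0.382 and 0.36. In AKR/J its mean CPM was higher on d15 than on d12 while the TMM-scaled fold change was negative, and with library totals alone that fold change was 0.24 ± 0.22 (SE). It fell in the late phase in each strain, with -0.54 ± 0.11 (SE) for AKR/J, -0.67 ± 0.16 for C57BL/6J and -0.38 ± 0.13 for Cav1-null brains, with edgeR adjusted p-values of 0.0113, 0.0371 and 0.0495. H2bc21 lost the AKR/J late call without d17 replicate 2 or 3 (edgeR adjusted p up to 0.0636), the C57BL/6J late call without any 1 d15 replicate or d17 replicate 2 or 3 (adjusted p up to 0.145) and the Cav1-null late call without d15 replicate 1 or 2 or d17 replicate 1 or 2 (adjusted p up to 0.163). H1f2, first in CPM per kb among the replication-dependent linker histone genes, ranged from 9.70 to 15.98 CPM on d12 and 4.61 to 5.31 CPM on d17 in AKR/J, and fell in its early phase with -1.15 ± 0.36 (SE, edgeR adjusted p = 0.0457), which was lost without d12 replicate 1 or 3 or any 1 d15 replicate (edgeR adjusted p up to 0.161). In the other strains H1f2 passed the test in neither phase.

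H2aw was the 1 histone gene that rose between days in edgeR's quasi-likelihood test with TMM scaling. It encodes an H2A histone, lies outside the main clusters on chromosome 11 (58845511 to 58847656), is named H2ac25 in the annotation, and overlaps Trim17. In AKR/J it was at 6.97, 7.69 and 8.18 CPM on d12, 25.7, 16.5 and 23.5 CPM on d15, and 16.7, 20.9 and 17.8 CPM on d17. It was at 18.01, 15.4 and 14.3 CPM on d12 and 18.9, 20.5 and 19.6 CPM on d15 in C57BL/6J. The 3 AKR/J libraries of d12 lay below all others of the series. The early log2 fold change of H2aw was 1.03 ± 0.27 (SE, edgeR adjusted p = 0.0244) in AKR/J, 0.35 ± 0.14 (SE, edgeR adjusted p = 0.113) in C57BL/6J and -0.10 ± 0.13 (SE, edgeR adjusted p = 0.613) in Cav1-null mice. The AKR/J call was lost without d12 replicate 1, d15 replicate 1 or d15 replicate 3 (adjusted p up to 0.103). H2aw later fell in Cav1-null mice, with -0.56 ± 0.10 (SE, edgeR adjusted p = 0.00144). The likelihood ratio test also called the H4 gene H4c11 higher in the Cav1-null early phase (1.35 ± 0.48, SE, edgeR adjusted p = 0.025).

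Of the lower genes, H1f4, a linker histone gene that H2bc6 overlaps, fell in the AKR/J late phase with -2.78 ± 0.64 (SE, edgeR adjusted p = 0.0181), from 2.39, 2.28 and 0.464 CPM to 0.277, 0.152 and 0.277 CPM. In C57BL/6J H1f4 fell with -2.03 ± 0.45 (SE, edgeR adjusted p = 0.0296). H3c7, an H3 gene, fell in the C57BL/6J early phase with -2.71 ± 0.68 (SE, edgeR adjusted p = 0.0423), from 0.913, 0.314 and 0.983 CPM to 0.126, 0.0265 and 0.161 CPM. H3c6 fell in the same comparison with -2.34 ± 0.58 (SE, edgeR adjusted p = 0.0412) and in the AKR/J late phase with -2.17 ± 0.55 (SE, edgeR adjusted p = 0.026). H4c4, whose exons overlap those of H2bc6 on the other strand, fell in the AKR/J early phase with -2.30 ± 0.68 (SE, edgeR adjusted p = 0.0365) and in that of C57BL/6J with -1.89 ± 0.51 (SE, edgeR adjusted p = 0.0486), and in Cav1-null mice it was at 0.67 ± 0.44 (SE, edgeR adjusted p = 0.306). H1f3 fell in C57BL/6J in the early phase, with -1.58 ± 0.35 (SE, edgeR adjusted p = 0.032), and in AKR/J in the late phase, with -1.84 ± 0.51 (SE, edgeR adjusted p = 0.0343). H2bc4, an H2B gene that overlaps H2ac6 on the other strand, fell in the AKR/J early phase with -1.37 ± 0.40 (SE, edgeR adjusted p = 0.0355) and in the Cav1-null late phase with -0.70 ± 0.19 (SE, edgeR adjusted p = 0.0152). Each of these calls was lost without at least 1 library. H1f4 lost the AKR/J late call without d15 replicate 1 or d17 replicate 2 or 3 (edgeR adjusted p up to 0.0914) and the C57BL/6J late call without any 1 d15 replicate or d17 replicate 2 or 3 (adjusted p up to 0.106). H3c7 lost the C57BL/6J early call without d12 replicate 1 or 3 or any 1 d15 replicate (edgeR adjusted p up to 0.138), and H3c6 lost the C57BL/6J early call without d12 replicate 1 or 3 or any 1 d15 replicate (edgeR adjusted p up to 0.134) and the AKR/J late call without d15 replicate 1 or 2 or any 1 d17 replicate (adjusted p up to 0.113). H4c4 lost the AKR/J early call without d12 replicate 1 or 3 or d15 replicate 1 or 3 (edgeR adjusted p up to 0.114) and the C57BL/6J early call without d12 replicate 1 or 3 or any 1 d15 replicate (adjusted p up to 0.165). H1f3 lost the C57BL/6J early call without d12 replicate 1 or any 1 d15 replicate (edgeR adjusted p up to 0.14) and the AKR/J late call without d15 replicate 1 or d17 replicate 1 or 3 (adjusted p up to 0.135). H2bc4 lost the AKR/J early call without d12 replicate 1 or 3 or any 1 d15 replicate (edgeR adjusted p up to 0.123) and the Cav1-null late call without d15 replicate 3 or d17 replicate 2 (adjusted p up to 0.0544).

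Among the replication-independent genes, both H2A.Z genes fell in the early phase of every strain. H2A.Z is found at promoters and regulatory elements. H2az1 in AKR/J was at 1584, 1142 and 1576 CPM on d12, 437, 403 and 384 CPM on d15, and 269, 250.1 and 234 CPM on d17. In C57BL/6J it had 520.1, 339 and 639 CPM on d12, 213, 219 and 202 CPM on d15, and 128, 198 and 193 CPM on d17. In Cav1-null mice it had 695, 793 and 459 CPM on d12, 409.5, 375 and 397 CPM on d15, and 201, 187 and 235 CPM on d17. The 3 AKR/J libraries of d12 were higher than any other library, and d12 and d15 did not overlap in any strain. Early log2 fold changes of H2az1 were -2.36 ± 0.35 (SE) for AKR/J, -1.19 ± 0.20 for C57BL/6J and -0.75 ± 0.20 for Cav1-null brains, with edgeR adjusted p-values of 0.00305, 0.0207 and 0.0258. Late ones were -0.66 ± 0.08 (SE) for AKR/J, -0.44 ± 0.16 for C57BL/6J and -0.93 ± 0.09 for Cav1-null brains, with edgeR adjusted p-values of 0.00173, 0.103 and 7.59e-06. With 1 library left out H2az1 lost the C57BL/6J early call without d12 replicate 1 or any 1 d15 replicate (edgeR adjusted p up to 0.123) and the Cav1-null early call without d12 replicate 1 or 2 or any 1 d15 replicate (adjusted p up to 0.102).

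H2az2, which encodes the second form of H2A.Z, was at 242, 239 and 258 CPM on d12, 143, 118 and 134 CPM on d15, and 81.4, 71.8 and 67.4 CPM on d17 in AKR/J. It was at 186, 138 and 196 CPM on d12, 85.4, 83.98 and 75.3 CPM on d15, and 47.2, 51.3 and 58.3 CPM on d17 in C57BL/6J. It was at 188, 200.2 and 136 CPM on d12, 114, 97.04 and 106 CPM on d15, and 50.6, 46.7 and 54.7 CPM on d17 in Cav1-null mice. Days did not overlap within a strain. H2az2 fell in all 6 comparisons, with early log2 fold changes of -1.42 ± 0.24 (SE) for AKR/J, -1.03 ± 0.13 for C57BL/6J and -0.76 ± 0.16 for Cav1-null brains, with edgeR adjusted p-values of 0.00479, 0.016 and 0.011. Late log2 fold changes of H2az2 were -0.80 ± 0.10 (SE) for AKR/J, -0.78 ± 0.12 for C57BL/6J and -1.06 ± 0.09 for Cav1-null brains, with edgeR adjusted p-values of 0.00177, 0.0117 and 2.52e-06. With 1 library left out H2az2 lost the C57BL/6J early call without any 1 d15 replicate (edgeR adjusted p up to 0.107), the Cav1-null early call without d15 replicate 2 or 3 (adjusted p up to 0.0583) and the C57BL/6J late call without d15 replicate 1 or 2 or d17 replicate 3 (adjusted p up to 0.0704).

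H1f0 encodes H1.0, the linker histone known to build up in cells that leave the cell cycle. It was at 233, 308 and 213 CPM on d12, 295, 269.5 and 295 CPM on d15, and 147, 95.8 and 97.3 CPM on d17 in AKR/J. C57BL/6J had 344, 340.0 and 363 CPM on d12, 261, 269 and 259 CPM on d15, and 116, 76.8 and 127 CPM on d17. Cav1-null mice had 366, 412 and 284 CPM on d12, 189, 168 and 148 CPM on d15, and 71.6, 99.1 and 87.3 CPM on d17. It was lowest on d17 in each strain, and in AKR/J d12 and d15 overlapped. Early log2 fold changes of H1f0 were -0.27 ± 0.18 (SE) for AKR/J, -0.36 ± 0.09 for C57BL/6J and -1.11 ± 0.16 for Cav1-null brains, with edgeR adjusted p-values of 0.281, 0.0424 and 0.00231. H1f0 then fell in each strain in the late phase, with -1.30 ± 0.16 (SE) for AKR/J, -1.42 ± 0.23 for C57BL/6J and -0.97 ± 0.11 for Cav1-null brains, with edgeR adjusted p-values of 0.0015, 0.0117 and 2.48e-05. H1f0 lost the C57BL/6J early call without d12 replicate 1 or any 1 d15 replicate (edgeR adjusted p up to 0.209) and the C57BL/6J late call without d15 replicate 1 or 2 or d17 replicate 3 (adjusted p up to 0.0604).

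H2ax was at 50.02, 70.8 and 51.99 CPM on d12, 66.5, 58.8 and 74.97 CPM on d15, and 41.4, 31.8 and 27.98 CPM on d17 in AKR/J. In C57BL/6J it was at 140.2, 150.4 and 135 CPM on d12, 93.7, 89.8 and 86.8 CPM on d15, and 55.4, 22.8 and 47.8 CPM on d17. In Cav1-null mice it was at 106, 79.9 and 57.2 CPM on d12, 40.6, 39.2 and 37.8 CPM on d15, and 19.4, 30.6 and 29.9 CPM on d17. C57BL/6J libraries of d12 were above those of both other strains. With library totals alone the signs of the AKR/J early changes of H2ax, H1f10 and H1f0, none of them called, turned positive (0.21 ± 0.22, 0.32 ± 0.30 and 0.19 ± 0.22, SE). Early log2 fold changes of H2ax were -0.25 ± 0.16 (SE) for AKR/J, -0.61 ± 0.10 for C57BL/6J and -1.08 ± 0.21 for Cav1-null brains, with edgeR adjusted p-values of 0.29, 0.0201 and 0.00694. The late changes were -0.95 ± 0.15 (SE) for AKR/J, -1.21 ± 0.33 for C57BL/6J and -0.57 ± 0.13 for Cav1-null brains, with edgeR adjusted p-values of 0.00441, 0.0515 and 0.00603. H2ax lost the C57BL/6J early call without d12 replicate 1 or any 1 d15 replicate (edgeR adjusted p up to 0.128). H1f10 is the gene of the linker variant H1x. Its late log2 fold changes were -0.84 ± 0.23 (SE) for AKR/J, -1.40 ± 0.39 for C57BL/6J and -0.32 ± 0.11 for Cav1-null brains, with edgeR adjusted p-values of 0.0322, 0.0559 and 0.035, and in the early phase it fell in Cav1-null mice, with -0.97 ± 0.21 (SE, edgeR adjusted p = 0.0107). H1f10 lost the Cav1-null early call without d15 replicate 2 or 3 (edgeR adjusted p up to 0.0565), the AKR/J late call without d15 replicate 1 or 3 or d17 replicate 2 or 3 (adjusted p up to 0.138) and the Cav1-null late call without any 1 d15 replicate or d17 replicate 1 or 2 (adjusted p up to 0.115).

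The genes of H3.3, the H3 variant placed at active genes and regulatory elements outside replication, were the most and the fourth most abundant per kb. H3f3a ranged from 797 to 1156 CPM on d12 to 609 to 647 CPM on d17 in AKR/J, from 496 to 653 to 314 to 472 CPM in C57BL/6J and from 809.7 to 1033 to 448 to 487 CPM in Cav1-null mice. Its early log2 fold changes were -1.06 ± 0.33 (SE) for AKR/J, -0.51 ± 0.12 for C57BL/6J and -0.35 ± 0.13 for Cav1-null brains, with edgeR adjusted p-values of 0.0423, 0.0366 and 0.0819. Between d15 and d17 they were -0.09 ± 0.09 (SE) for AKR/J, -0.09 ± 0.16 for C57BL/6J and -0.60 ± 0.07 for Cav1-null brains, with edgeR adjusted p-values of 0.49, 0.716 and 5.86e-05. H3f3a lost the AKR/J early call without d12 replicate 1 or 3 or any 1 d15 replicate (edgeR adjusted p up to 0.142) and the C57BL/6J early call without d12 replicate 1 or any 1 d15 replicate (adjusted p up to 0.165). H3f3b was at 649.9 to 722 CPM on d12, 982 to 1095 CPM on d15 and 669 to 828 CPM on d17 in AKR/J, where d15 was the highest day in CPM. Early log2 fold changes of H3f3b were 0.11 ± 0.26 (SE) for AKR/J, -0.15 ± 0.11 for C57BL/6J and -0.49 ± 0.12 for Cav1-null brains, with edgeR adjusted p-values of 0.782, 0.345 and 0.0179. With library totals alone the AKR/J early value of H3f3b was 0.62 ± 0.19 (SE, edgeR adjusted p = 0.0498) and passed the test. Late changes of H3f3b were -0.46 ± 0.11 (SE) for AKR/J, -0.54 ± 0.16 for C57BL/6J and -0.41 ± 0.08 for Cav1-null brains, with edgeR adjusted p-values of 0.0167, 0.0681 and 0.00191. H3f3b lost the Cav1-null early call without any 1 d15 replicate (edgeR adjusted p up to 0.0882) and the AKR/J late call without d15 replicate 1 or d17 replicate 2 or 3 (adjusted p up to 0.0931). H2aj, an H2A variant gene, fell in the AKR/J early phase, with -1.14 ± 0.27 (SE, edgeR adjusted p = 0.0156), which like the H3f3a call of that comparison was lost with library totals alone (edgeR adjusted p = 0.0735 and 0.118), and in the Cav1-null late phase, with -0.39 ± 0.12 (SE, edgeR adjusted p = 0.0321). H2aj lost the AKR/J early call without d12 replicate 1 or 3 or d15 replicate 1 or 2 (edgeR adjusted p up to 0.0621) and the Cav1-null late call without d15 replicate 1 or 2 or any 1 d17 replicate (adjusted p up to 0.171), and its Cav1-null late value lay between -0.52 and -0.26 in these fits. The pseudogene H3f3c, which shares 56.7% of its 100-base stretches with H3f3a and other copies, fell in the AKR/J early phase, with -1.49 ± 0.43 (SE, edgeR adjusted p = 0.0341), which was lost without d12 replicate 1 or 3 or any 1 d15 replicate (edgeR adjusted p up to 0.129).

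**Figure D3:**
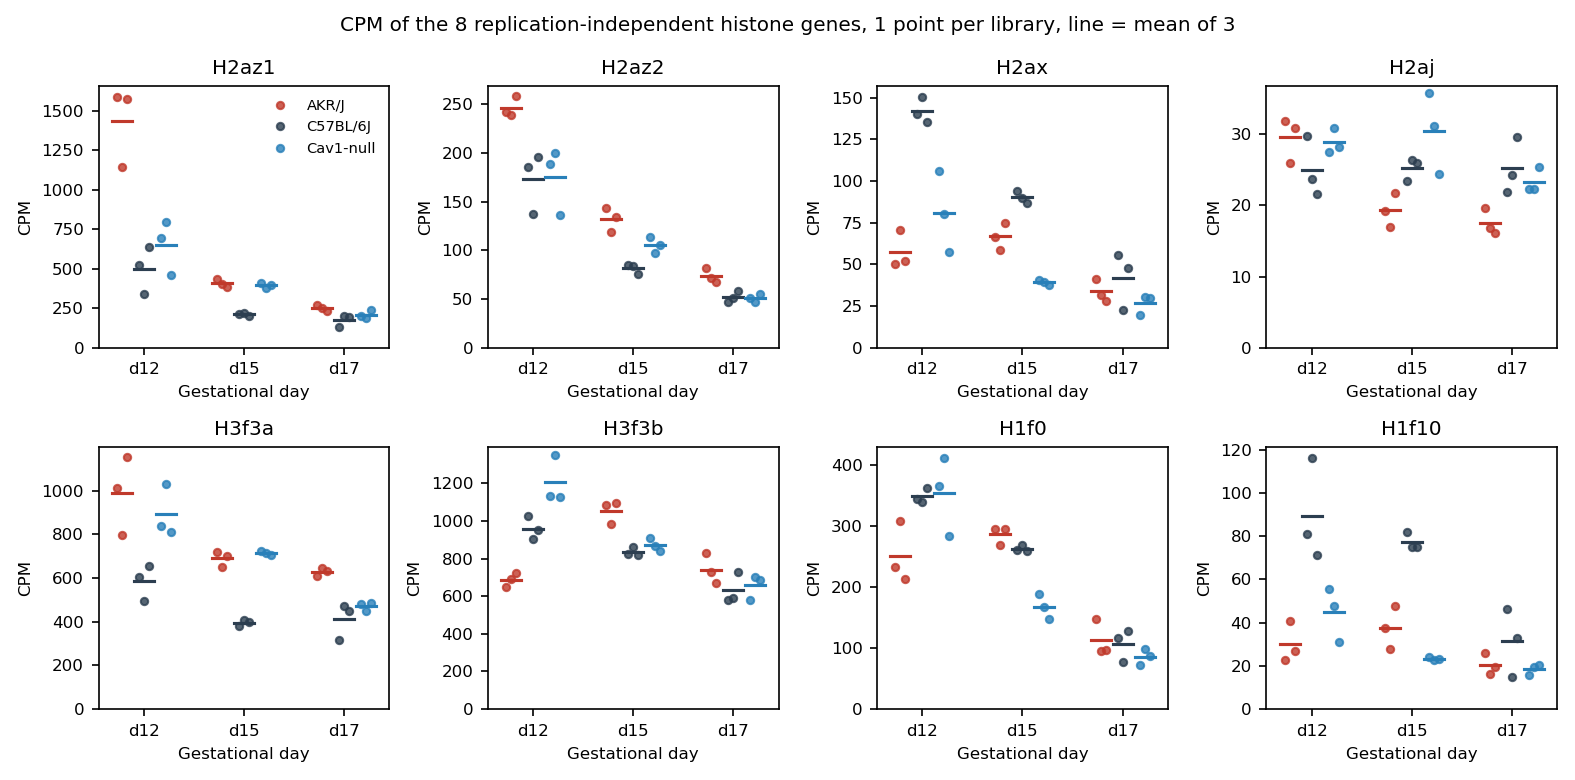
CPM of the 8 replication-independent histone genes by gestational day, 1 point per library and a line at the mean of 3 libraries, coloured by strain. H2az1 in AKR/J on d12 stands above all other libraries, and H1f0 is lowest on d17 in each strain.

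Counted over the table, histone genes fell between days far more often than they rose. Genes with few reads passed the filter on low counts mostly through the day on which they were high, so that the counts describe the genes tested and not all 83. In the AKR/J early phase, 18 of 52 tested histone genes were lower on d15 (34.6%, against 14.0% of all genes tested) and 1 was higher (1.92%, against 14.8%). The median log2 fold change of the 52 was -1.25, and 0.02 over all genes, which became -0.70 and 0.46 with library totals alone. In AKR/J the erythroid sum was 35610 to 136200 CPM on d12 and 2154 to 3320 CPM on d15, with 9 of 10 genes lower. The trophoblast and decidua sum was 19.1 to 467 CPM and 0.0673 to 0.374 CPM on these days, and the neuron sum 1298 to 1796 CPM and 4074 to 5548 CPM. Their part in the histone values was not tested. In C57BL/6J 17 of 48 were lower (35.4%, against 7.80%) and none higher (against 7.08%), with a median of -1.24 against -0.04. In Cav1-null mice 10 of 41 were lower (24.4%, against 11.8%) and none higher (against 11.6%), with a median of -0.35 against -0.0094, which was -0.20 for the histone genes without d12 replicate 2. Split by kind, 4 of 32 replication-dependent genes were lower there (12.5%, near the share of all genes), with a median of -0.25 and 11 of positive sign. The other 6 were among the 8 replication-independent genes, whose median was -0.76. Of 41 histone genes tested in all 3 strains, 6 were called lower in each (against 2.82% of the 18283 genes so tested): H2ac11, H2az1, H2az2, H2bc11, H3c3 and H4c9.

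In the late phase 16 of 32 were lower in AKR/J (against 10.4% of all genes), 5 of 29 in C57BL/6J (17.2%, against 5.58%) and 16 of 33 in Cav1-null mice (48.5%, against 12.8%). None was higher, against 11.6%, 7.46% and 14.5% of all genes. All 8 replication-independent genes were among the 16 of Cav1-null mice, and the genes called lower in every strain were H1f0, H2ac11, H2az2 and H2bc21, 4 of 26 tested in all 3, against 3.19% of the 18847 genes so tested. The median log2 fold changes of the tested histone genes were -0.77, -0.67 and -0.93, against -0.0063, 0.03 and -0.0037 over all genes. The AKR/J median was -1.24 without d15 replicate 3, -1.48 without d17 replicate 1 and -1.29 without d17 replicate 2, where 44, 46 and 47 histone genes were tested in place of 32, and -1.31 with no filter on low counts (65 tested) or with 1 model of all libraries (56 tested).

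Single libraries carried many of these calls. The 19 calls of the early phase in AKR/J became 9 without d12 replicate 1, 11 without d12 replicate 3, and 8 without d15 replicate 1 or 3, where the calls among all genes went from 5758 to 3775, 3807, 2871 and 2619. There H2ac11, H2az1, H2az2, H2bc11, H2bc12, H3c3 and H4c9 were called without any 1 of the 6 libraries. The 17 of C57BL/6J became 1 without d12 replicate 1, 9 without d12 replicate 3, and 0 without any 1 of the d15 replicates, so that no early call of C57BL/6J held throughout. Over all genes the 2850 calls became 330 and 3267 without these d12 replicates and 6, 0 and 2 without d15 replicate 1, 2 or 3. The 10 of Cav1-null mice became 6 without d15 replicate 2 and 5 without d15 replicate 3 (4666 calls over all genes became 2301 and 2533), with H1f0, H2ax, H3c3 and H4c9 called each time. In the late phase the 16 of AKR/J became 9 without d15 replicate 1, 6 without d17 replicate 2 and 5 without d17 replicate 3 (4409 over all genes became 3134, 1576 and 1726), with H1f0, H2ax, H2az1, H2az2 and H4c9 called each time. The 5 of C57BL/6J became 0 without d15 replicate 1 or 2 or d17 replicate 3, 2 without d15 replicate 3 and 10 without d17 replicate 1, while 2594 over all genes became 363, 267, 160, 781 and 6990. The 16 of Cav1-null mice stayed between 13 and 21, and 10 were called each time. With libraries scaled by their sizes alone, the AKR/J early phase had 10 lower and 2 higher in place of 18 and 1, beside 6.09% and 18.0% of all genes.

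**Figure D4:**
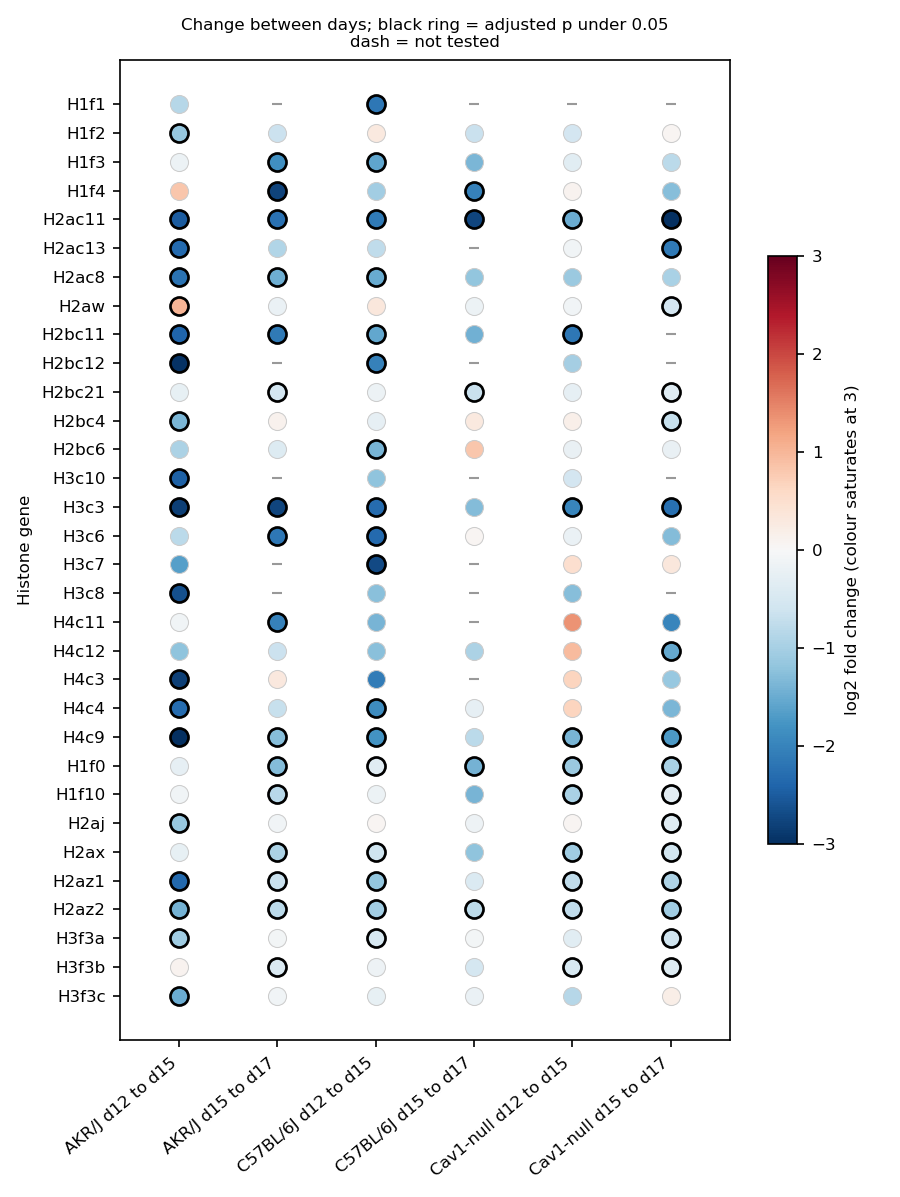
log2 fold change of each histone gene called in at least 1 comparison of days (rows, by kind and class) in the 6 comparisons (columns), blue for lower and red for higher on the later day, with a black ring for an edgeR adjusted p under 0.05 and a dash where a gene was not tested. H2ac11 and H2az2 are ringed in all 6 columns, and H2aw is the 1 ringed gene in red.

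Genes that act with the histones were counted from lists. The shares of all genes to read these counts against were, in the order AKR/J, C57BL/6J, Cav1-null, 14.0%, 7.80% and 11.8% lower and 14.8%, 7.08% and 11.6% higher in the early phase, and 10.4%, 5.58% and 12.8% lower and 11.6%, 7.46% and 14.5% higher in the late phase. The 19 tested of 21 listed genes for the transcription and 3′ end of histone mRNA had 1 higher and 3 lower in the AKR/J early phase, 1 and 2 in C57BL/6J and 1 and 6 in Cav1-null mice, with medians of 0.00, -0.22 and -0.20. E2f1, a transcription factor of the S phase, was the member that fell most in all 6 comparisons, with early log2 fold changes of -0.89 ± 0.17 (SE), -1.33 ± 0.20 and -1.17 ± 0.16 in the order AKR/J, C57BL/6J, Cav1-null (edgeR adjusted p = 0.00801, 0.0178 and 0.00152). Lsm11, a subunit of the U7 particle that processes histone mRNA, was the member that rose, with 1.16 ± 0.21, 0.73 ± 0.19 and 0.43 ± 0.09 (edgeR adjusted p = 0.0061, 0.0439 and 0.00841). In the late phase the list had no rise and 6 falls in AKR/J, no rise and 2 falls in C57BL/6J, and 1 and 7 in Cav1-null mice.

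Of 34 histone chaperones, all tested, 10, 15 and 16 were lower in the early phase, in the same order of strains, and 3, 2 and 2 were higher. In the late phase 18, 9 and 16 were lower and 2, 1 and 2 higher. Asf1a, which hands H3 and H4 to other chaperones, fell most in the AKR/J early phase, with -1.86 ± 0.32 (SE, edgeR adjusted p = 0.00506), and Asf1b in that of C57BL/6J, with -1.48 ± 0.21 (SE, edgeR adjusted p = 0.0172). Nap1l3 and Nap1l5, nucleosome assembly proteins known from neurons, were the members that rose most: Nap1l3 by 1.504 ± 0.26 (SE, edgeR adjusted p = 0.00556) in the AKR/J early phase and Nap1l5 by 1.33 ± 0.19 (SE, edgeR adjusted p = 0.00846) in the C57BL/6J late phase. Among other histone variants, Cenpa, the H3 variant of centromeres, fell most in each comparison, with early values of -1.82 ± 0.16 (SE), -1.53 ± 0.20 and -1.09 ± 0.17 (edgeR adjusted p = 0.000831, 0.016 and 0.00264).

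S-phase genes fell between the same days. Of 26, all tested, 21, 25 and 25 were lower in the early phase and 24, 19 and 25 in the late phase in the same order of strains, and none rose, with medians of -0.93, -0.98, -1.12, -1.06, -1.01 and -0.74. Their sum was 1524 to 2183 CPM in AKR/J on d12 and 533.9 to 698 CPM on d17, 1852 to 2488 CPM and 511 to 609 CPM in C57BL/6J, and 1375 to 2075 CPM and 506 to 548 CPM in Cav1-null mice. Gins2, Uhrf1, Pcna, Mcm3 and Cdc45 each had the largest fall in at least 1 comparison. Of the 6 neuron markers 5, 4 and 2 rose in the early phase and 2, 2 and 4 in the late phase and none fell, while of the 6 progenitor markers 4, 2 and 4 fell in the early phase and 5, 3 and 4 in the late phase, and at most 1 rose. The lists were chosen with earlier results of these data known, and no list was tested as a set.

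On d12, 15 of 53 tested histone genes were higher in AKR/J than in C57BL/6J (28.3%, against 14.5% of all genes) and 2 were lower (3.77%, against 14.1%). H4c9 had the largest difference without overlap, with 73.9, 39.3 and 70.7 CPM against 17.2, 9.76 and 23.6 CPM and a log2 difference of 2.42 ± 0.44 (SE, edgeR adjusted p = 0.0115). H2az1 was at 2.04 ± 0.39 (SE, edgeR adjusted p = 0.0122), H2az2 at 0.99 ± 0.26 (SE, edgeR adjusted p = 0.0242) and H3f3a at 1.27 ± 0.35 (SE, edgeR adjusted p = 0.0286). H2ac11, with 4.98, 3.14 and 5.77 CPM against 1.89, 1.23 and 2.72 CPM, differed by 1.79 ± 0.47 (SE, edgeR adjusted p = 0.026). Both lower genes were replication-independent: H1f10, with 22.9, 40.9 and 26.9 CPM against 81.1, 116 and 71.4 CPM, was lower with -1.18 ± 0.24 (SE, edgeR adjusted p = 0.0129), and H2ax with -0.88 ± 0.17 (SE, edgeR adjusted p = 0.0126). The median log2 difference of the 53 was 0.99, against 0.02 over all genes.

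These are the AKR/J libraries with erythroid and trophoblast RNA. In the order of replicates the erythroid sums were 69000, 35610 and 136200 CPM. The neuron sum was 1298 to 1796 CPM against 3310 to 4861 CPM in C57BL/6J, with 3 of 6 markers lower, and the progenitor sum 2133 to 2849 CPM against 1697 to 2082 CPM, with 1 of 6 higher. Of the 26 S-phase genes 7 were higher and 2 lower in AKR/J, beside the same 14.5% and 14.1% of all genes, and their summed CPM overlapped between the strains. The part of these cells in the histone values was not tested. The 17 calls became 2 without AKR/J replicate 1, 3 without AKR/J replicate 3, 2 without C57BL/6J replicate 1 and 0 without C57BL/6J replicate 2, and no gene was called each time. Calls among all genes went from 5529 to 1369, 1529, 1630 and 25 there. Without C57BL/6J replicate 2 the adjusted p of H4c9 was 0.0622. With libraries scaled by their sizes alone 6 were higher and 3 lower, beside 7.05% and 16.3% of all genes, and the median was 0.48 against -0.38 over all genes.

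On d15, when the erythroid sum of AKR/J was 2154 to 3320 CPM against 739 to 993 CPM in C57BL/6J, 11 of 37 histone genes were higher in AKR/J (29.7%, against 18.8%) and 3 lower (8.11%, against 22.3%), and the part of erythroid RNA was not tested. H4c9 was at 12.2, 8.87 and 11.5 CPM against 4.48, 4.87 and 4.71 CPM, a log2 difference of 1.05 ± 0.17 (SE, edgeR adjusted p = 0.00266). H2az1 differed by 0.78 ± 0.08 (SE, edgeR adjusted p = 0.000372), from 437, 403 and 384 CPM against 213, 219 and 202 CPM. H3c6 had the largest difference without overlap, 1.97 ± 0.66 (SE, edgeR adjusted p = 0.0478). H1f10 was lower with -1.20 ± 0.18 (SE, edgeR adjusted p = 0.00174), H2ax with -0.60 ± 0.10 (SE, edgeR adjusted p = 0.00227) and H2aj with -0.55 ± 0.12 (SE, edgeR adjusted p = 0.00929), which was lost without C57BL/6J replicate 2 (edgeR adjusted p = 0.0577). H2ac11, H2ac8, H2az1, H2az2, H3f3a, H4c9, H1f10 and H2ax were called without any 1 of the 6 libraries. The 14 calls became 9 without C57BL/6J replicate 2 or 3 and 23 without AKR/J replicate 3 (8089 over all genes became 5749, 6084 and 7828), and H3c6 was called only without AKR/J replicate 3 (adjusted p up to 0.134 otherwise).

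Cav1-null mice on d15 differed from C57BL/6J at 58.6% of all genes, so that 15 called of 39 histone genes is a smaller share. Of these 9 were higher (23.1%, against 26.8%) and 6 lower (15.4%, against 31.8%). H4c9 was at 9.87, 8.32 and 8.69 CPM against 4.48, 4.87 and 4.71 CPM, a log2 difference of 0.76 ± 0.15 (SE, edgeR adjusted p = 0.00134). H2az1 differed by 0.72 ± 0.06 (SE, edgeR adjusted p = 3.25e-06) and H3f3a by 0.67 ± 0.05 (SE, edgeR adjusted p = 2.49e-06). Of the 26 S-phase genes 5 were higher and 16 lower there, with a median of -0.49, and their part in these values was not tested. The H4 gene H4c3 had the largest difference without overlap, 2.07 ± 0.74 (SE, edgeR adjusted p = 0.0337), which was lost without C57BL/6J replicate 3 or any 1 of the Cav1-null replicates (adjusted p up to 0.103) and lay between 1.47 and 3.19 in the 6 fits without a library.

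Lower in Cav1-null mice were H1f10, with 24.2, 22.9 and 22.9 CPM against 82.04, 74.96 and 74.9 CPM and a log2 difference of -1.91 ± 0.07 (SE, edgeR adjusted p = 1.92e-08), and H2ax, with 40.6, 39.2 and 37.8 CPM against 93.7, 89.8 and 86.8 CPM and -1.38 ± 0.06 (SE, edgeR adjusted p = 4.15e-08). These libraries did not overlap. H1f0 was lower with -0.83 ± 0.08 (SE, edgeR adjusted p = 1.06e-05), H1f2 with -0.83 ± 0.19 (SE, edgeR adjusted p = 0.00323) and H2bc21 with -0.53 ± 0.13 (SE, edgeR adjusted p = 0.00482). H3c15, an H3 gene, had the largest lower difference without overlap, at -1.92 ± 0.57 (SE, edgeR adjusted p = 0.0147), and was lost without C57BL/6J replicate 3 or Cav1-null replicate 1 or 3. On the same day 12 of the 15 calls held without any 1 library. H1f10 and H2ax were thus lower than in C57BL/6J in both short-lived strains on d15, and both comparisons share the 3 C57BL/6J libraries.

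No histone gene was called between Cav1-null and C57BL/6J mice on d12, of 50 tested. edgeR's quasi-likelihood test called no gene of the whole table there, with 10 histone genes and 4309 of all 19475 genes at an unadjusted p under 0.05, and DESeq2 and edgeR's likelihood ratio test called 3 histone genes each, beside 2027 of 19435 and 1269 of 19475 genes in all. Without C57BL/6J replicate 3 there was 1, beside 1500 of all 20347 genes. H1f10, at 55.7, 47.6 and 31.1 CPM against 81.1, 116 and 71.4 CPM, had -1.06 ± 0.29 (SE, edgeR adjusted p = 0.114), and H2ax -0.87 ± 0.25 (SE, edgeR adjusted p = 0.117). On d17, 22 histone genes were tested in either short-lived strain and edgeR's quasi-likelihood test called none (0.742% of all genes in AKR/J and 0.0491% in Cav1-null mice). At an unadjusted p under 0.05 there were 4 and 1 (beside 4275 of 20207 and 1538 of 20358 genes in all), DESeq2 called 4 and none (beside 1327 of 20194 and 48 of 20353 genes in all), and the likelihood ratio test 1 and none (beside 1192 of 20207 and 55 of 20358). H3f3a in AKR/J was at 0.60 ± 0.16 (SE, edgeR adjusted p = 0.141) and H2az1 at 0.53 ± 0.16 (SE, edgeR adjusted p = 0.163). Without C57BL/6J d17 replicate 2, 6 of 25 histone genes were called in AKR/J, beside 5478 of all 20740 genes, and 4 of 30 in Cav1-null mice, beside 2865 of all 20991.

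**Figure D5:**
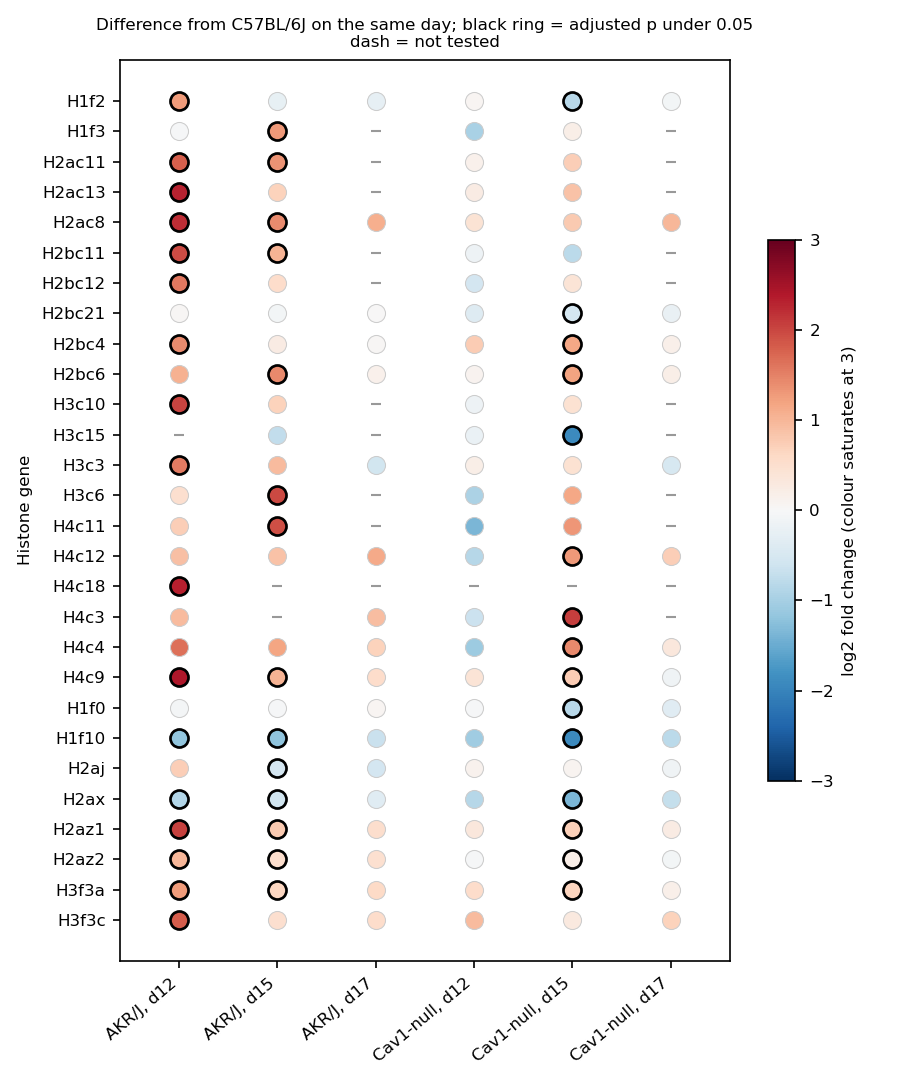
log2 difference from C57BL/6J on the same day for each histone gene called in at least 1 comparison of strains (rows, by kind and class), for AKR/J and Cav1-null mice on d12, d15 and d17 (columns), red for higher and blue for lower than C57BL/6J, with a black ring for an edgeR adjusted p under 0.05 and a dash where a gene was not tested. H2ax and H1f10 are blue and H2az1 is red on d15 in both strains, and no gene is ringed on d17.

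Whether the change between days itself differed from C57BL/6J was tested by an interaction term. Of the 55 histone genes tested for the early phase and 40 for the late phase, edgeR's quasi-likelihood test called none in either short-lived strain, where it called 0.0711% and 0.00468% of all genes for AKR/J and 0.00472% and 0.252% for Cav1-null mice. At an unadjusted p under 0.05 there were 9 and 4 histone genes for AKR/J (beside 3432 of 21090 and 1617 of 21373 genes in all) and 19 and 8 for Cav1-null mice (beside 3181 of 21191 and 4683 of 21431). DESeq2 called 3 in the AKR/J early phase and 1 in that of Cav1-null mice (beside 1012 of 21004 and 498 of 21134 genes in all), the likelihood ratio test 1 and 2 (beside 728 of 21090 and 200 of 21191), and neither called any in the late phase. The early log2 fold change in AKR/J minus that in C57BL/6J was -1.24 ± 0.39 (SE, edgeR adjusted p = 0.169) for H2az1 and -1.26 ± 0.33 (SE, edgeR adjusted p = 0.138) for H2aj, and neither difference passed the test. For Cav1-null mice H4c11 had 2.70 ± 0.73 (SE, edgeR adjusted p = 0.207) in the early phase and H3f3a -0.54 ± 0.16 (SE, edgeR adjusted p = 0.105) in the late phase. Without AKR/J d12 replicate 2, 8 of 56 histone genes were called in the AKR/J early phase, beside 3251 of all 21955 genes. Without C57BL/6J d12 replicate 2, 6 of 56 were called for Cav1-null mice in the early phase, beside 1618 of all 22161 genes. In their late phase 7 of 47 were called once C57BL/6J d17 replicate 1 was left out, beside 5792 of all 22227 genes.

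The table of splice junctions holds 11 junctions of histone genes, in H2az1, H3f3a and H3f3b, and none of a replication-dependent gene. Reads on these junctions were not compared between groups, since a 0 there may mark removed reads.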

How the data were processed

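RNA was sequenced from 27 whole fetal brains. The authors bound RNA to poly-T beads, aligned reads with STAR to GRCm39 (their processing notes also name fastp, cutadapt and FastQC) and deposited raw read counts per gene. The counting tool and how it treated strand and reads with several matches are not given in the sources used here. Library totals of 26363697 to 39759702 reads (median 29700746) limit what genes with few reads can show.

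Groups were taken from the labels. CPM is the count per 1000000 reads of the library total. For each comparison the whole table was filtered by filterByExpr, scaled by TMM and fitted with edgeR 4.0.16 in R 4.3.3 by the quasi-likelihood test (two-sided), with the 6 libraries compared (12 for an interaction) and no covariates, and genes with a Benjamini-Hochberg adjusted p under 0.05 over all genes tested were called. DESeq2 1.42.0 served as an alternative, as did edgeR's likelihood ratio test, other scaling, no filter, 1 model of all 27 libraries, a replicate block and leaving out each library. In simulated counts of the AKR/J early phase (19914 genes, 200 changed) 90% of changes of 1 on the log2 scale and 100% of changes of 2 were recovered, and 5.94% of the calls were of unchanged genes. For the interactions (200 changed of 20550 to 20858 genes) recovery of changes of 1 was lower, at 35% and 46% for AKR/J and 53% and 37% for Cav1-null brains in the early and late phase, and 98% or more of changes of 2 were recovered. The simulated spread was set in advance, the same for all genes, and only genes with more reads than most replication-dependent genes were changed. These shares therefore do not describe the recovery of histone genes with few reads. Sequences were read with Python 3.11.15.

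Named were all replication-independent genes, the replication-dependent genes with the highest mean CPM in each class (2 a class), the called genes with the largest rise and fall without overlap in each comparison, genes at 0, and the called members of the lists with the largest rise and fall. H2ac11, H2bc11, H2bc8, H1f4, H4c12, H4c11 and H3f3c, where named elsewhere, were chosen after their values were seen. The histone genes and lists were chosen with earlier results of these data known. H2aw was set among the replication-dependent genes and H3f3c as a pseudogene after the annotation was read.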

Additional observations from a re-analysis of the deposited data

How the results depend on the processing

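No call of a histone gene changed direction under any alternative that was run. The number called moved by over 1.5 times as follows. With library sizes alone it was 12 in place of 19 in the AKR/J early phase, where the all-gene median log2 fold change went from 0.02 to 0.46, and 9 in place of 17 between AKR/J and C57BL/6J on d12, where that median went from 0.02 to -0.38. With 1 model of all libraries it was 10 in place of 17 in the early and 12 in place of 5 in the C57BL/6J late phase, 7 in place of 16 in the Cav1-null late phase, 2 in place of 0 between Cav1-null and C57BL/6J mice on d12, and 3 in place of 0 for the early interaction of AKR/J. Over all genes the calls of these fits went from 2850 to 3809, 2594 to 4565, 5530 to 829, 0 to 1734 and 15 to 1660. DESeq2 gave 10 and the likelihood ratio test 10 in the C57BL/6J late phase, 4 and 1 for AKR/J on d17, 3 and 3 for Cav1-null mice on d12, and 3 and 1, and 1 and 2, for the early interactions of AKR/J and of Cav1-null mice, beside 4581 and 4181, 1327 and 1192, 2027 and 1269, 1012 and 728, and 498 and 200 genes in all. With no filter on low counts there were 2 for Cav1-null mice on d12, and 1 each for the early interaction of AKR/J and the late one of Cav1-null mice, beside 750, 544 and 1010 genes in all. The causes were not tested.

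With each library left out in turn, the number ranged from 8 to 23 (early) and 5 to 23 (late) in AKR/J, 0 to 24 and 0 to 10 in C57BL/6J, and 5 to 14 and 13 to 21 in Cav1-null mice. On d12, d15 and d17 it ranged from 0 to 20, 9 to 23 and 0 to 6 for AKR/J against C57BL/6J, and from 0 to 1, 12 to 16 and 0 to 4 for Cav1-null mice. For the interactions it ranged from 0 to 8 and 0 to 0 (AKR/J), and 0 to 6 and 0 to 7 (Cav1-null).

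Same-numbered libraries did not deviate together (in none of the 12 comparisons was every correlation over 0.1), so that the numbers do not pair the samples. With the replicate block 11 histone genes were called in the AKR/J early phase and 0 in that of C57BL/6J, beside 4241 of 19935 and 0 of 19154 genes in all. Of the 129 called log2 fold changes, 96 stayed called with the block, 128 with DESeq2, 129 with the likelihood ratio test, 126 with RLE size factors, 109 with library sizes alone, 121 with no filter and 100 with 1 model of all libraries. Between days 29 to 52 histone genes were tested, 28 to 56 with 1 library left out, 56 with 1 model of all libraries and 65 to 67 with no filter.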
